A study of Mus musculus with 21 samples.

Results

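The genes described here are 9 that act in meiotic prophase: Sycp1, Sycp2, Sycp3, Hormad1, Hormad2, Dmc1, Mlh3, Msh4 and Msh5. They were listed by name for their known roles, though with earlier results of these data known. Each was matched by its symbol to a single row of the table of 54232 genes. The question asked of them was whether their transcripts were still present in fully grown oocytes, and whether they differed with the Kif11 genotype or the Cre driver. All 9 passed the filter on low values, a count above 0 in at least 3 libraries, which 23225 genes passed over all 21 libraries.

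The 21 libraries were made from poly(A) RNA of 3 mouse oocytes each, amplified as whole cDNA and sequenced. Kif11 encodes a kinesin that pushes spindle microtubules apart, and the study asked how its dosage affects spindle formation in oocytes. The control was Kif11 wt/fl without Cre (4 libraries), and the other groups were fl/del without Cre (4), wt/fl Spo11-Cre (5), fl/del Spo11-Cre (4) and fl/fl with Zp3-Cre (2) or with Gdf9-Cre (2). Every group thus carried at least 1 floxed allele, fl is the conditional allele, and del is an allele deleted in the whole animal. Spo11-Cre is active in early meiotic prophase, and Gdf9-Cre and Zp3-Cre are active in growing oocytes after prophase arrest. The oocytes came from females of the C57BL/6 background aged 3 to 4 months, 48 h after injection of eCG or HyperOva, and were at the germinal vesicle stage. Each mouse gave 1 or 2 libraries, so that p-values measure the spread between libraries, not all of which came from separate animals. Which hormone a library's mouse received is not in the labels. The paper's methods count 17 libraries in total, the number outside the fl/fl groups. Whether these details hold for the fl/fl libraries is thus not stated.

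In prophase of meiosis I, homologous chromosomes are broken, paired and recombined. SYCP2 and SYCP3 form the lateral elements of the synaptonemal complex along each chromosome, and SYCP1 spans the gap between the paired homologs as the transverse filament. HORMAD1 and HORMAD2 coat chromosome axes that are not yet synapsed, DMC1 is the meiotic strand exchange protein, the MSH4-MSH5 pair stabilises crossover intermediates, and MLH3 helps to resolve them. In the mouse these events take place in the fetal ovary, and the oocyte then stays arrested with its crossovers made until it is fully grown and resumes meiosis.

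The 9 genes lie on 7 chromosomes in GRCm38, with 3 of them, Sycp1 (chr3:102818499-102936100), Hormad1 (chr3:95559677-95587671) and Msh4 (chr3:153857149-153906138), far apart on chromosome 3. The others are Sycp2 (chr2:178345293-178407685), Sycp3 (chr10:88459569-88473236), Hormad2 (chr11:4345814-4441105), Mlh3 (chr12:85234520-85270599), Dmc1 (chr15:79561497-79605109) and Msh5 (chr17:35028605-35046745). In the annotation used here, 52.2% of the exon length of Sycp3 is shared with exons of Chpt1, which encodes an enzyme of phosphatidylcholine synthesis, and 1.81% of that of Msh4 with a small noncoding gene. The other 7 share no exon with another gene of the table. The libraries do not record strand, so that reads from the shared exons of Sycp3 could not be told from those of Chpt1, and its level is uncertain.

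As background, the letters GCGGGAA are those bound by the repressor E2F6, which with the E-box binding pair MAX and MGA keeps meiotic genes silent in other cells. In the RefSeq promoters of GRCm38.p6 (250 bases before to 50 bases after each start), GCGGGAA on either strand stood in 3 of the 9 genes, against 4.60% of all 32851 promoters, and the E-box CACGTG stood in Sycp1, Sycp3 and Hormad1, against 7.15% of all. The 2 motifs do not overlap in letters. They were chosen after the promoters were read, and a match describes letters only. The windows around GCGGGAA, which is in capitals, are shown because Sycp3 and Msh5 hold a longer run in common.
Sycp3 (chr10:88459429-88459458, plus strand): aggaaggaacaGCGGGAAagtgctgcttct
Msh5 (chr17:35046669-35046698, minus strand): tgacggaaaagGCGGGAAagtgctgcgaat
Hormad1 (chr3:95559571-95559600, plus strand): cgcagcttttgGCGGGAAtagtggtctggc
The motif began 147 bases before the RefSeq start of Sycp3, 65 bases before that of Msh5 and 95 bases before that of Hormad1. For Sycp3 and Msh5 the RefSeq start differs from the start of the gene positions given above. By those positions the motif of Msh5 lies within the gene. The run GCGGGAAAGTGCTGC, of 15 bases, stood in the promoters of Sycp3 and Msh5 and in no other of the 32851.

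Total counts ranged from 7205010 to 18454549 over all libraries and from 12729969 to 14283549 in wt/fl. The 4 fl/fl libraries held 7801470 to 10759741 counts, fewer than any wt/fl library. In wt/fl, Kif11 itself was at 34.5 ± 8.46 CPM (counts scaled to a total of 1000000; SD, n = 4), and it was at 11.9 ± 3.06 CPM (n = 4) in fl/del. With Spo11-Cre it was at 24.6 ± 5.04 CPM (n = 5) on wt/fl and at 1.78 ± 0.685 CPM (n = 4) on fl/del. It was at 5.0 ± 0.15 CPM (n = 2) with Gdf9-Cre and 6.11 ± 2.60 CPM (n = 2) with Zp3-Cre. The 12 oocyte markers summed to between 20581 and 27691 CPM in every library. Of 16 granulosa and cumulus markers, Foxl2, Wt1 and Tnfaip6 were at 0 in all 21 libraries and the list summed to between 71.9 and 126 CPM, nearly all of it Cyp19a1 and Nr5a2. Without these 2 genes it summed to between 2.35 and 17.3 CPM, with the highest value in a Gdf9-Cre library, and its part in the levels below was not tested.

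Transcripts of all 9 genes were found in fully grown oocytes. Sycp1, Sycp2, Sycp3, Hormad2, Dmc1 and Msh4 were at 1 CPM or above in all 21 libraries, a class that held 19.6% of all genes in the table. Hormad1, Mlh3 and Msh5 were close to 1 CPM on average, and each was detected in 20 of 21 libraries. Their zeros were in wt/fl Spo11-Cre replicate 5 for Hormad1, where a count of 0 allows up to 0.165 CPM, and in fl/del replicate 3, the shallowest library, for Mlh3 and Msh5, where it allows up to 0.416 CPM. These limits cover counting error only. They take each count as a separate fragment and would be wider if both mates of a pair were counted.

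On the scale of TPM, which accounts for transcript length, the 9 genes covered almost 2 orders of magnitude. Over all 21 libraries the means were 36.6 TPM for Sycp2, 29.7 for Sycp3, 16.9 for Msh4, 10.8 for Sycp1, 6.91 for Dmc1, 5.06 for Hormad2, 1.34 for Hormad1, 0.432 for Msh5 and 0.402 for Mlh3. The intervals of mean ± SD over libraries were apart only between Msh4 and Sycp1 and between Hormad2 and Hormad1, and for the other 6 pairs of neighbours in this order they overlapped. Msh5 and Mlh3 could not be ordered, since Msh5 was the higher in 10 of 21 libraries. Among the 23225 genes that passed the filter, the wt/fl mean TPM of Sycp2 stood at the percentile 85.0, of Sycp3 at 82.3, of Msh4 at 76.4, of Sycp1 at 68.4, of Dmc1 at 64.8, of Hormad2 at 55.7, of Hormad1 at 45.4, of Msh5 at 31.9 and of Mlh3 at 29.2. The median of the 9 was 6.42 TPM in wt/fl, beside 1.98 TPM over all genes that passed. For scale, Sycp2 stood at 0.618% and Mlh3 at 0.00664% of the wt/fl TPM of Gdf9, an oocyte growth factor.

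The genes also differed in how much they varied. The coefficient of variation of CPM over 21 libraries was 18.8% for Msh4, 18.9% for Sycp2, 20.5% for Sycp1, 25.4% for Dmc1 and 32.9% for Sycp3, and for each of these counting error alone, for fragments counted once, would give between 3.91% and 14.3%. It was 49.8% for Hormad2, beside 15.6% from counting. For Hormad1, Msh5 and Mlh3, with a mean of 13.0, 13.7 and 17.3 counts per library, it was 54.7%, 57.6% and 66.8%, beside 33.5% to 37.0% from counting.

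**Figure D1:**
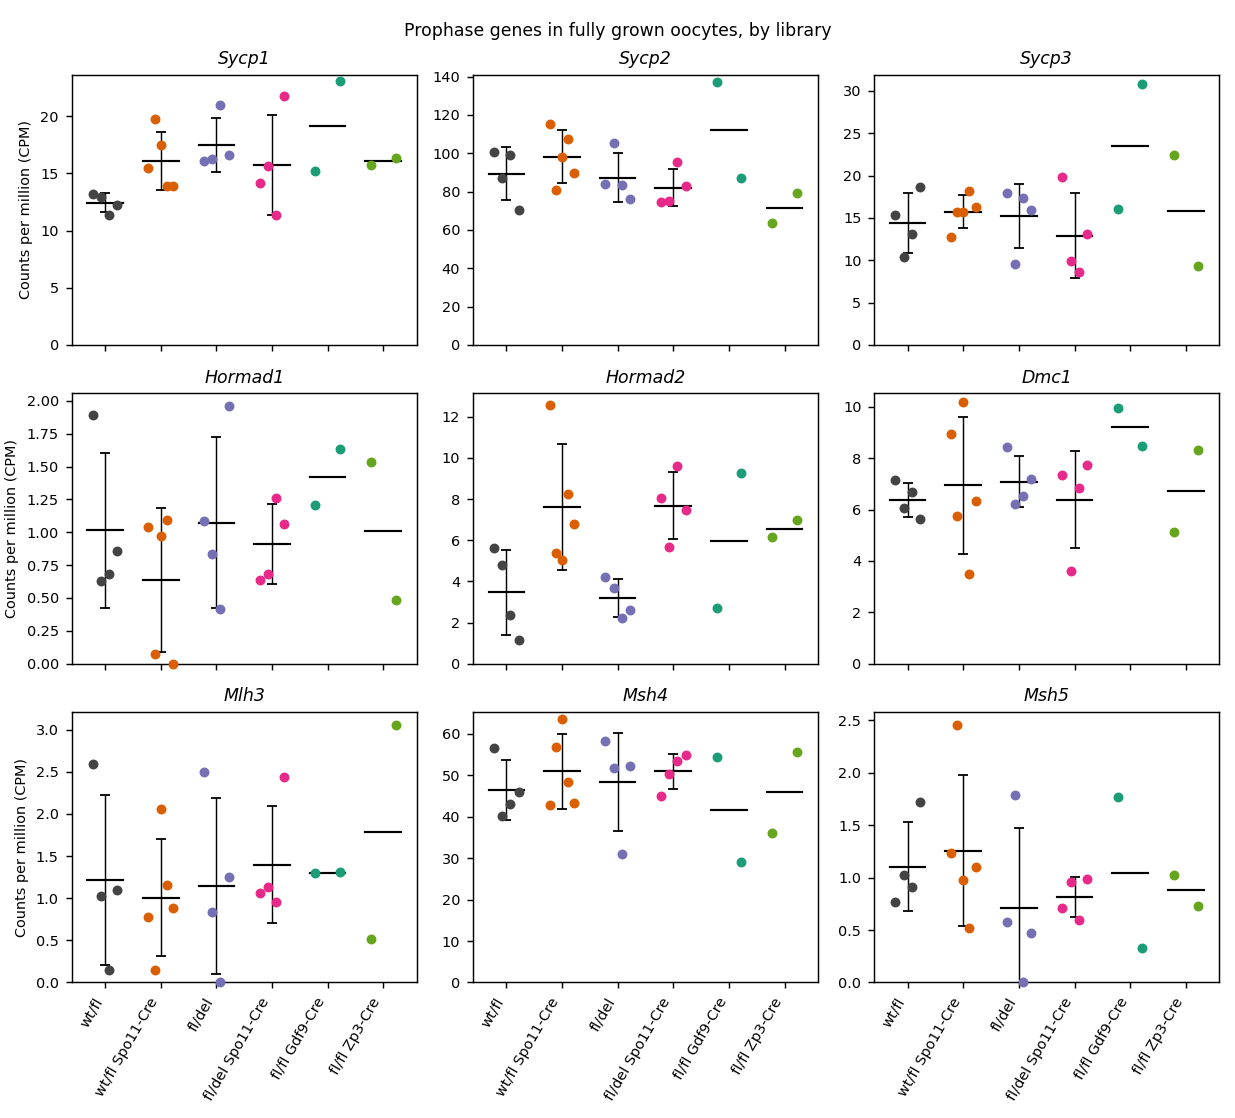
CPM of each gene (vertical axes, linear from 0) by group (horizontal axes), with 1 point per library, a line at the group mean and bars of 1 SD where a group has more than 2 libraries. Hormad2 lies higher in both Spo11-Cre groups, with means of 7.60 and 7.69 CPM, than in wt/fl and fl/del, with means of 3.48 and 3.19 CPM, while the ranges of Sycp2, Sycp3, Msh4 and Dmc1 overlap among most groups.

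None of the 9 genes passed the test between wt/fl and any other genotype. Genes were called at a Benjamini-Hochberg adjusted p under 0.05 over all genes in edgeR's quasi-likelihood test. In fl/del against wt/fl, 0.0223% of the genes tested were called and 0 of the 9, with 1 of the 9 at an unadjusted p under 0.05. In wt/fl Spo11-Cre against wt/fl, 2.19% were called and 0 of the 9, with 2 of the 9 at an unadjusted p under 0.05. In fl/del Spo11-Cre, where nearly all Kif11 message was gone, 0.197% were called and 0 of the 9, with 1 at an unadjusted p under 0.05. In the fl/fl groups, taken as the mean of both drivers, 2.79% were called and 0 of the 9, with 0 at an unadjusted p under 0.05. The difference between the Spo11-Cre effect in fl/del and in wt/fl was called for 0.103% of genes and for 0 of the 9, with 0 at an unadjusted p under 0.05. DESeq2 called 1 of the 9, Hormad2, in wt/fl Spo11-Cre, and none in the other 4 comparisons just named. It gave no adjusted p for Hormad1, Mlh3 and Msh5, which thus could not be called by it. In the last comparison it gave none for Hormad2 and Dmc1 either. All comparisons with wt/fl share its 4 libraries.

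Against wt/fl, the median log2 fold change of the 9 genes was 0.16 and -0.01 with Spo11-Cre on wt/fl and on fl/del, 0.08 in fl/del without Cre and 0.22 in fl/fl, beside medians over all genes tested between -0.03 and 0.03. The median size of the log2 fold change, without its sign, was 0.20, 0.17, 0.09 and 0.26 for the 9 genes, beside 0.35, 0.32, 0.30 and 0.40 over all genes tested in the same order. This size depends on the level, so it was also taken among genes with a mean count of at least 100. In the same order it was then 0.16, 0.15, 0.09 and 0.25 for the 4 members in that class. Over all 8525 genes it was 0.17, 0.14, 0.12 and 0.20, so that the members were not set apart against wt/fl. For the difference between the Spo11-Cre effect in fl/del and in wt/fl it was 0.34 for these members and 0.19 over all. For Zp3-Cre against Gdf9-Cre it was 0.45 and 0.20. With both Spo11-Cre groups against both Cre-free groups it was 0.08 and 0.11. Kif11, the targeted gene, changed by -1.50 ± 0.22 (log2, SE; adjusted p = 8.48e-05) in fl/del, by -4.29 ± 0.25 (adjusted p = 2.22e-19) in fl/del Spo11-Cre and by -2.73 ± 0.25 (adjusted p = 3.28e-12) in fl/fl, all by edgeR. In wt/fl Spo11-Cre its log2 fold change was -0.47 ± 0.20 (adjusted p = 0.237).

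**Figure D2:**
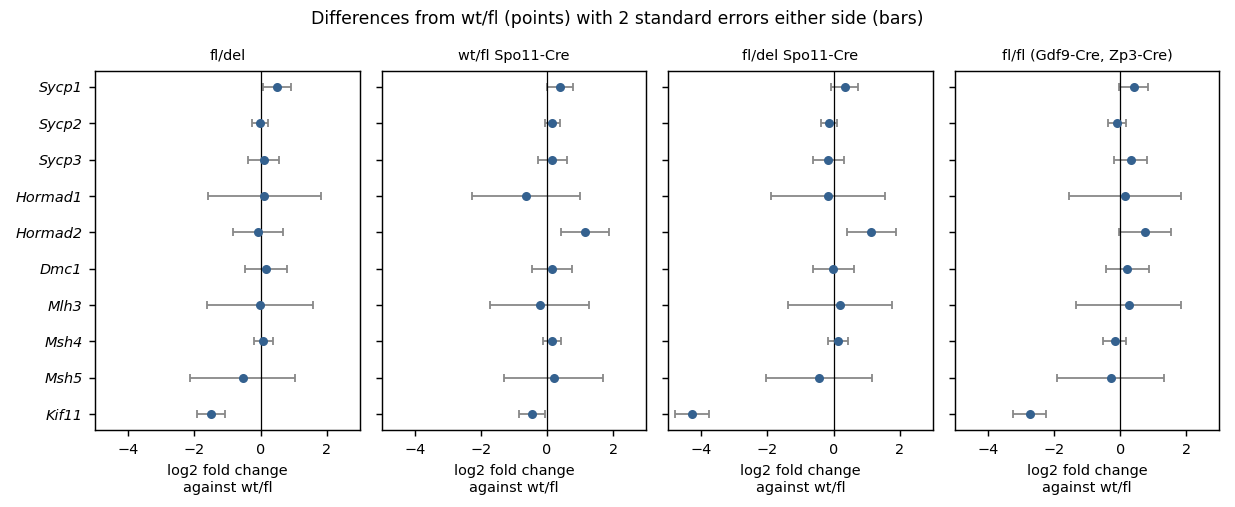
Log2 fold change against wt/fl (horizontal axes) of the 9 genes and Kif11 (vertical axis) in 4 comparisons, with bars of 2 standard errors either side. Kif11 lies far to the left in 3 panels, at -1.50, -4.29 and -2.73, Hormad2 lies near 1.15 in both Spo11-Cre panels, and the bars of Hormad1, Mlh3 and Msh5 are the widest.

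The lateral element gene Sycp2 gave the most precise values of the 9. It was at 101, 87.0, 99.0 and 70.6 CPM in wt/fl, at 84.2, 105, 83.6 and 76.0 CPM in fl/del, at 115, 80.9, 98.2, 107 and 89.4 CPM in wt/fl Spo11-Cre and at 74.5, 75.1, 95.4 and 82.8 CPM in fl/del Spo11-Cre. All 4 groups overlapped. The log2 fold change against wt/fl was -0.01 ± 0.12 (SE) in fl/del, 0.16 ± 0.11 in wt/fl Spo11-Cre and -0.13 ± 0.12 in fl/del Spo11-Cre, so that 2 standard errors either side left room for changes between -0.37 and 0.39. With Gdf9-Cre the 2 libraries were at 137 and 87.2 CPM, and with Zp3-Cre at 63.4 and 79.3 CPM. The comparison of Zp3-Cre with Gdf9-Cre called 0.891% of genes and 0 of the 9. Of the 9, 1 had an unadjusted p under 0.05 and 0 were called by DESeq2. For Sycp2 the log2 fold change of Zp3-Cre against Gdf9-Cre was -0.68 ± 0.20, with an edgeR adjusted p of 0.0784. This value rests on single libraries: the adjusted p was 0.0127 without Gdf9-Cre replicate 2 and 0.0230 without Zp3-Cre replicate 2, and it was 0.817 without Gdf9-Cre replicate 1 and 0.5605 without Zp3-Cre replicate 1. In these fits the lone library left in a group was assumed to vary like the other groups.

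Sycp3, its partner in the lateral element, averaged 14.4 ± 3.51 CPM (SD, n = 4) in wt/fl, 15.2 ± 3.83 (n = 4) in fl/del, 15.7 ± 1.95 (n = 5) in wt/fl Spo11-Cre and 12.9 ± 5.001 (n = 4) in fl/del Spo11-Cre. Its lowest and highest fl/fl libraries were at 9.28 CPM with Zp3-Cre and at 30.8 CPM with Gdf9-Cre. In none of the comparisons was it called, and its log2 fold change against wt/fl lay between -0.17 and 0.32, with standard errors of 0.22 to 0.25. Chpt1, which shares its exons, was at 3.14 ± 1.11 CPM (SD, n = 21), below Sycp3 on this scale.

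Sycp1, the transverse filament gene, was lower and tighter in wt/fl than in most other libraries. It was at 13.2, 13.0, 11.4 and 12.3 CPM in wt/fl and at 16.1, 16.2, 20.96 and 16.6 CPM in fl/del. In wt/fl Spo11-Cre it was at 15.5, 19.8, 17.4, 13.9 and 13.9 CPM, and in fl/del Spo11-Cre at 14.2, 15.7, 11.4 and 21.7 CPM. With Gdf9-Cre it was at 15.2 and 23.1 CPM and with Zp3-Cre at 15.8 and 16.4 CPM. Every library of fl/del, wt/fl Spo11-Cre, Gdf9-Cre and Zp3-Cre lay above every wt/fl library, and fl/del Spo11-Cre overlapped wt/fl. Such a gap was seen for 1.17%, 2.05%, 11.7% and 11.1% of the genes that passed the filter in these 4 groups, in the same order, and for 2.14% in fl/del Spo11-Cre. The log2 fold change against wt/fl was 0.50 ± 0.21 (SE) in fl/del, 0.39 ± 0.20 and 0.33 ± 0.21 with Spo11-Cre on wt/fl and on fl/del, and 0.41 ± 0.21 in fl/fl. None passed the test, with edgeR adjusted p between 0.332 and 0.594, and all 4 values rest on the same wt/fl libraries.

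Of the 9 genes, Hormad2 had the highest log2 fold changes against wt/fl in the Spo11-Cre groups. It was at 5.60, 4.79, 2.35 and 1.17 CPM in wt/fl and at 4.22, 3.70, 2.22 and 2.61 CPM in fl/del. In wt/fl Spo11-Cre it was at 12.6, 5.37, 5.04, 8.25 and 6.78 CPM, and in fl/del Spo11-Cre at 8.04, 5.66, 9.60 and 7.45 CPM. All 4 fl/del Spo11-Cre libraries lay above all 4 wt/fl libraries, as was so for 2.14% of the genes that passed the filter. The ranges of wt/fl Spo11-Cre and wt/fl overlapped. The log2 fold change against wt/fl was 1.15 ± 0.36 (SE) in wt/fl Spo11-Cre and 1.14 ± 0.37 in fl/del Spo11-Cre, with edgeR adjusted p of 0.0736 and 0.232. In fl/del without Cre it was -0.08 ± 0.38, and the difference between the Spo11-Cre effect in fl/del and in wt/fl was 0.08 ± 0.51 (adjusted p = 1.00). With wt/fl replicate 1 left out, the comparison of wt/fl Spo11-Cre with wt/fl passed the test, at an adjusted p of 0.0385, and over all alternatives the adjusted p lay between 0.0305 and 0.290.

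A contrast of both Spo11-Cre groups (9 libraries) with both Cre-free groups (8 libraries) was added after these values were seen, so that it describes the pattern and is no independent test of it. In it Hormad2 had a log2 fold change of 1.19 ± 0.26 (SE), which is 2.28-fold, with an edgeR adjusted p of 0.00668, and 1.43% of the genes tested were called. Of the 9 Spo11-Cre libraries, 7 lay above the highest Cre-free library, and of the 8 Cre-free libraries, 7 lay below the lowest Spo11-Cre library. The share of all genes split in this way is not given here. The means were 7.64 ± 2.38 CPM (SD, n = 9) and 3.33 ± 1.49 CPM (SD, n = 8). The other 8 genes had log2 fold changes between -0.46 and 0.15 in this contrast and were not called. Of the 27 other genes tested within 500 kb of Hormad2, 1 was called in the same contrast, Tcn2, a carrier of vitamin B12, with a log2 fold change of 0.48 ± 0.09 (adjusted p = 0.00113). The fl/fl libraries, which carry other drivers, held Hormad2 at 2.70 and 9.25 CPM with Gdf9-Cre and at 6.15 and 6.96 CPM with Zp3-Cre. These were higher than the wt/fl mean in 3 of 4 libraries. Both Zp3-Cre libraries lay above every wt/fl library, a gap seen for 11.1% of the genes that passed the filter. The range with Gdf9-Cre overlapped that of wt/fl. The log2 fold change of fl/fl against wt/fl was 0.76 ± 0.39 (edgeR adjusted p = 0.365).

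Hormad1 was at 1.02 ± 0.592 CPM (SD, n = 4) in wt/fl, 1.07 ± 0.652 (n = 4) in fl/del, 0.638 ± 0.550 (n = 5) in wt/fl Spo11-Cre and 0.911 ± 0.301 (n = 4) in fl/del Spo11-Cre. Its log2 fold change in wt/fl Spo11-Cre was -0.65, with 2 standard errors either side reaching from -2.28 to 0.99. That range holds both rises and falls, so that no direction could be read at this depth. It overlaps the same range for Hormad2, which was 0.43 to 1.87. With both Spo11-Cre groups against both Cre-free groups, the same range for Hormad1 was -1.65 to 0.72. Hormad2 had the higher TPM of the pair in 19 of 21 libraries.

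Dmc1, the strand exchange gene, stood between Sycp1 and Sycp3 in its coefficient of variation over libraries, at 25.4%. It averaged 6.37 ± 0.669 CPM (SD, n = 4) in wt/fl, 7.09 ± 0.991 (n = 4) in fl/del, 6.94 ± 2.66 (n = 5) in wt/fl Spo11-Cre and 6.38 ± 1.88 (n = 4) in fl/del Spo11-Cre. With Gdf9-Cre it was at 9.94 and 8.48 CPM, and with Zp3-Cre at 5.13 and 8.30 CPM. The log2 fold change against wt/fl lay between -0.01 and 0.22, with standard errors of 0.30 to 0.32. In wt/fl it was at 6.42 ± 0.602 TPM (SD, n = 4).

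Of the crossover genes, Msh4 was far above Msh5 and Mlh3. It was at 46.4 ± 7.20 CPM (SD, n = 4) in wt/fl, 48.3 ± 11.9 (n = 4) in fl/del, 50.9 ± 8.99 (n = 5) in wt/fl Spo11-Cre and 50.9 ± 4.32 (n = 4) in fl/del Spo11-Cre. Its log2 fold change against wt/fl was 0.08 ± 0.15 (SE), 0.16 ± 0.14 and 0.13 ± 0.15 in the last 3 of these groups, and -0.17 ± 0.17 in fl/fl. In the same order of groups, Msh5 was at 1.10 ± 0.422, 0.710 ± 0.762, 1.26 ± 0.722 and 0.815 ± 0.190 CPM, and Mlh3 at 1.21 ± 1.01, 1.14 ± 1.04, 1.01 ± 0.694 and 1.398 ± 0.693 CPM. Standard errors of the log2 fold changes of Msh5 and Mlh3 against wt/fl were 0.75 to 0.81, and 2 standard errors either side reached from -2.15 to 1.84 over these comparisons.

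MSH4 and MSH5 work as a pair, yet in wt/fl the TPM of Msh4 was 16.5 ± 2.48 and that of Msh5 0.492 ± 0.193 (SD, n = 4), 33.6 times lower. The ratio lay between 18.5 and 88.2 in the 20 libraries with a count for Msh5. By contrast the subunits of the cofactor of DMC1, Psmc3ip at 116 ± 7.92 TPM and Mnd1 at 95.6 ± 21.1 TPM, were close, with Psmc3ip the higher in 14 of 21 libraries. Of the exon length of Psmc3ip 21.2% is shared with Mlx, so that its level and its order beside Mnd1 are uncertain. Within the central element of the synaptonemal complex, Syce2 was at 907 ± 44.0 TPM and its binding partner Tex12 at 108 ± 15.2 TPM.

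**Figure D3:**
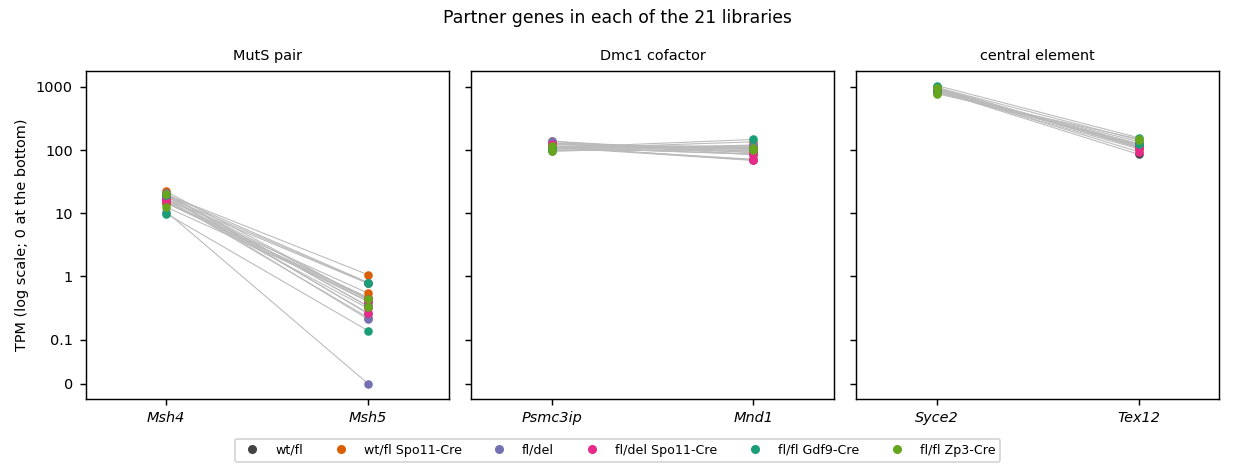
TPM (vertical axis, log scale, with 0 drawn at the bottom) of 3 pairs of genes whose proteins bind each other, with 1 line per library and colors for the 6 groups. Lines fall steeply from Msh4 to Msh5 in all 21 libraries and run almost level from Psmc3ip to Mnd1.

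The 9 genes were set beside 57 others of meiotic prophase, in 8 roles. Of the 57, 38 were at 1 CPM or above in every library, 7 were above 0 in every library but below 1 CPM in some, 8 were at 0 in some libraries and 4 were at 0 in all. The 52 that passed the filter had a median of 16.3 TPM in wt/fl.

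The genes of the synaptonemal complex covered a wide range. Syce2 (907 TPM in wt/fl), Tex12 (108 TPM), Sycp2l (46.7 TPM), an oocyte paralog of Sycp2, and Syce1 (8.28 TPM) were at 1 CPM or above in every library. Syce3 was detected in 6 and 4930447C04Rik (Six6os1) in 8 of 21 libraries. Among genes for strand exchange 9 of 12 were at 1 CPM or above in every library, led by Sfr1 (1915 TPM), Psmc3ip and Hsf2bp (110 TPM), a partner of BRCA2. All 5 genes that meiosis shares with mismatch repair reached that class, with Msh6 at 56.3 TPM and Pms1 at 35.3 TPM.

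Among genes for crossovers 10 of 14 were in that class, led by the nucleases Mus81 (122 TPM) and Exo1 (60.2 TPM) and by Tex11 (28.6 TPM). For break formation it was 4 of 9, with Mei4 at 41.6 TPM, Rec114 at 22.8 TPM and Zcwpw1, a reader of the marks that PRDM9 sets, at 9.99 TPM. The level of Rec114 is uncertain, since 26.9% of its exon length is shared with Nptn, and 8.21% of that of Zcwpw1 is shared with Pilra. Of the genes that attach telomeres to the nuclear envelope, 3 of 5 were in that class, with Ccdc155 (Kash5) at 62.7 TPM, Terb1 at 33.9 TPM and Sun1 at 9.94 TPM, and Terb2 was detected in 5 libraries. Mad2l1bp (96.0 TPM) and Trip13 (3.30 TPM), whose products strip HORMA proteins from synapsed axes, were both in that class.

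The genes at 0 in all 21 libraries were Spo11, which makes the breaks, Stra8, which starts meiosis, and Mcmdc2 and Spata22, which act in strand exchange. In the annotation used here 80.5% of the exon length of Spata22 is shared with Gm49340, which was at 0 too, so that its zero could not be read as absence of the transcript. For Mcmdc2 the shared part is 2.15%. Rec8, the meiotic cohesin subunit, was detected in 1 of 21 libraries, with 10 counts in all. Of the genes for meiotic entry only Dazl, a germ cell RNA-binding protein (895 TPM), was at 1 CPM or above in every library.

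**Figure D4:**
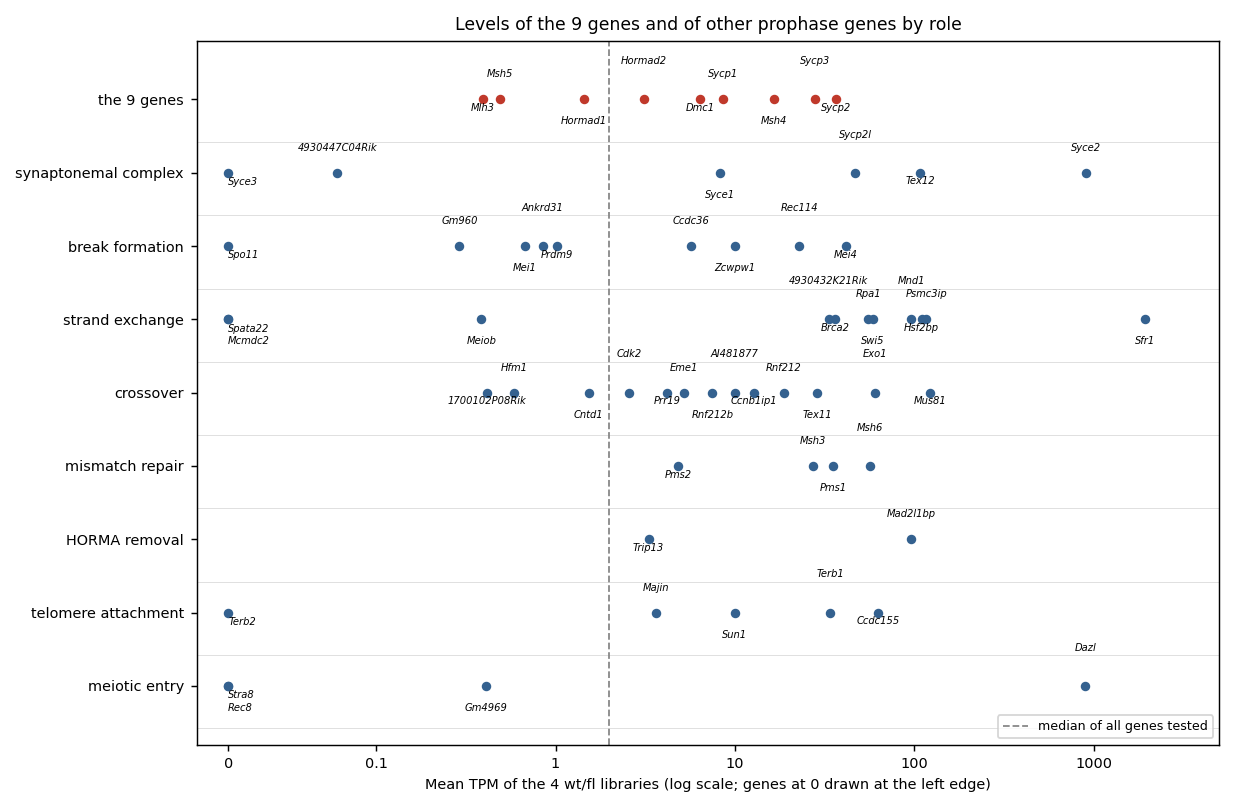
Mean TPM in the 4 wt/fl libraries (horizontal axis, log scale, with genes at 0 at the left edge) of the 9 genes and of most of the other prophase genes by role (vertical axis). The 9 genes, in red, run from 0.395 TPM (Mlh3) to 36.7 TPM (Sycp2), within the range of the others, and the dashed line is the median of all genes that passed the filter, 1.98 TPM.

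Of these 57 genes 52 were tested, and the shares called were near those of all genes. None of the 52 was called in fl/del, wt/fl Spo11-Cre or fl/del Spo11-Cre against wt/fl, or in the Spo11-Cre contrast added later, where 2.19% of all genes or fewer were. In fl/fl against wt/fl 1 fell, Brca2, from 200 ± 6.07 CPM (SD, n = 4) in wt/fl to 189 ± 26.2 (n = 2) with Gdf9-Cre and 139 ± 15.8 (n = 2) with Zp3-Cre, a log2 fold change of -0.40 ± 0.11 (SE; edgeR adjusted p = 0.0224). Lower values than in wt/fl were not particular to fl/fl. Brca2 averaged 168 ± 22.2 CPM (n = 5) in wt/fl Spo11-Cre, 173 ± 8.20 (n = 4) in fl/del and 172 ± 7.61 (n = 4) in fl/del Spo11-Cre. These 3 means were below the Gdf9-Cre mean. Between the fl/fl groups 1 was lower with Zp3-Cre, Dazl, at 894 ± 21.8 CPM (n = 2) beside 1351 ± 32.9 CPM (n = 2) with Gdf9-Cre (log2 fold change -0.63 ± 0.13; edgeR adjusted p = 0.00314). The test for any difference among the 6 groups called 5.57% of genes, 3 of the 52 (Brca2, Dazl and Mad2l1bp, which was at 36.2 and 39.2 CPM in the fl/fl groups and between 45.1 and 54.0 CPM in the other 4) and 0 of the 9, of which Hormad2 (edgeR adjusted p = 0.0587) and Sycp2 (0.0923) came closest and 2 had an unadjusted p under 0.05. DESeq2 called 1 of the 9 in this test, Hormad2, and gave no adjusted p for Hormad1, Mlh3 and Msh5. The fl/fl groups differ from the others in depth as well as in genotype and driver, and these cannot be told apart. Whether the fl/fl libraries were prepared together with the others is not stated.

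The genes whose CPM followed the members most closely over the 21 libraries were sought for the 4 members with a mean count of at least 100, among 8525 genes. Pearson's r of log2(CPM + 1) was 0.72 between Sycp1 and Ppib and 0.68 with Rwdd1, 0.75 between Sycp2 and Atrx and 0.74 with 2210408I21Rik, and 0.74 between Sycp3 and C1qbp. For Msh4 it was 0.85 with Zbtb41 and 0.76 with Gm35315. These are the highest values over libraries that share depth and group, given as a description. No other member was among those named, but members with a mean count under 100 were not in this pool. Among 14260 genes with a mean count of at least 10, which include every member, none was named either.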

How the data were processed

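Reads of 150 bp were trimmed (fastp) and mapped to GRCm38 (HISAT2 2.2.1) by the authors, who counted those with a single position on genes of Ensembl release 93 (featureCounts 2.0.3). The deposited counts over all exons are whole numbers without normalization, and were 1.95 times those of the table the authors made with Kif11 exon 22 alone, as though each mate were counted. The deposited TPM values were made by a method not given in the sources used here. Totals of 7205010 to 18454549 counts set the precision. Gene positions and exon overlaps come from GENCODE vM21 on the same build, a later release than the authors' annotation.

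CPM were scaled to 1000000 counts. The models (edgeR 4.0.16 under R 4.3.3, with TMM, glmQLFit and glmQLFTest) took genes counted in at least 3 libraries, in 17 libraries for the Spo11-Cre background and in 21 where fl/fl groups enter. p-values were adjusted by Benjamini-Hochberg over all genes, at 0.05. DESeq2 1.42.0 and other settings were alternatives, and the scripts were tested on simulated data. The 9 genes, the list of 57 and the markers were chosen with earlier results of these data known. Of the other genes, those named were called in a comparison, were among the 3 highest of a role, were at 0 in all libraries, or were among the 2 most alike, and partners and genes found in some libraries only were named after their values were seen. The values of some genes are not reported here.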

Additional observations from a re-analysis of the deposited data

Results flagged for a closer look

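In 2 of 36 sets of 4 or 5 libraries (9 genes in 4 groups), the highest library stood apart from the rest of its group, about the 1 in 20 that chance gives. Sycp1 was at 20.96 CPM in fl/del replicate 3, the library with the lowest total, beside 16.1 to 16.6 CPM in the other 3. Mlh3 was at 2.43 CPM in fl/del Spo11-Cre replicate 4, beside 0.960 to 1.13 CPM in the other 3.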

How the results depend on the processing

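Hormad2 and Sycp2 were the members whose calls depended on the setting, and the cause was not tested. With Spo11-Cre on wt/fl the number called was 1 (Hormad2) with no filter on low counts or with DESeq2, and 0 to 1 when a library was left out. For Zp3-Cre against Gdf9-Cre it was 1 (Sycp2) with no filter. Summing libraries of 1 name prefix, which in the fl/fl groups is the driver, left 1 summed library in each of them. Leaving out an fl/fl library also left 1 in its group, so calls from these fits are not given here. The log2 fold change of Sycp2 lay between -0.97 and -0.32 over all alternatives. For any difference among groups the number called was 2 with no filter and 1 with DESeq2 or the exon 22 table. It was 0 to 1 when a library outside the fl/fl groups was left out. In fl/del against wt/fl, fl/fl against wt/fl and the interaction it was 0 under every alternative run. In the contrast added later Hormad2 was called in 26 of 26 alternatives, with edgeR or DESeq2 adjusted p of 0.000212 to 0.0215. That contrast was chosen after the values were seen. Its alternatives refit largely the same libraries, so they are no independent test. Log2 fold changes changed sign in 87 of 1710 cases, none of them called.

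With the replicate number as a block, the number called was 1 with Spo11-Cre on wt/fl, 1 with it on fl/del, 1 in Zp3-Cre against Gdf9-Cre and 2 for any difference. Libraries share only a number: same-numbered libraries of different groups had deviations with a median correlation of 0.02 (5 of 24 pairs over 0.1), and 7 of 16 libraries correlated best with their own number.

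Over all genes the calls moved from 491 to between 178 and 931 in wt/fl Spo11-Cre, from 5 to between 1 and 96 in fl/del, from 44 to between 29 and 230 in fl/del Spo11-Cre, from 23 to between 2 and 138 for the interaction, from 319 to between 170 and 544 in the added contrast, from 647 to between 238 and 1353 in fl/fl, from 207 to between 127 and 398 for Zp3-Cre against Gdf9-Cre, and from 1294 to between 1008 and 2067 for any difference. Members at 1 CPM in every library numbered 5 at 2 CPM and 6 under the other settings. With genes of a mean count of at least 10 in the comparison, 4 of the 8 most alike stayed the same.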
